A study of Mus musculus with 2 samples.

Results

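The 9 genes described here encode parts of the VEGF and angiopoietin systems, the ligands and receptors through which tissues form and maintain blood and lymph vessels. They are the ligand genes Vegfa, Vegfc, Angpt1 and Angpt2 and the receptor genes Kdr, Flt1, Flt4, Tek and Tie1. They were taken by symbol, and all 9 were found among the 56893 gene symbols of the files. The cells were taken from the alveolar bone of mice, the jaw bone around the tooth roots, in a study of teeth moved by an orthodontic spring. In the force group of that study, a coil spring pulled the first molar of C57BL/6J mice aged 6 to 8 weeks at 25 g, and in the control group the spring was attached without force. Both groups thus carried the spring, and the labels name no transgene or drug. On day 7, bone up to 1 mm from the socket was collected, pooled from 6 mice per group, dissociated with enzymes, freed of red cells by lysis and made into 1 single-cell library per pool. No label ties either of the 2 libraries to a group. They are therefore named by number, and no comparison of force with control was made.

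VEGF-A is a secreted growth factor that stimulates endothelial cells, which line blood vessels, mainly through the receptor VEGFR2, the product of Kdr. Flt1 encodes VEGFR1, which binds VEGF-A tightly and can hold it back from VEGFR2, and Flt4 encodes VEGFR3, the receptor for VEGF-C and a driver of lymphatic growth. Angiopoietin 1 activates the receptor Tie2, the product of Tek, and stabilises vessels, whereas angiopoietin 2 can oppose it, and Tie1 is a related receptor that modulates Tie2. In bone, blood vessels grow together with bone-forming cells, and VEGF-A is made by several cells of the bone and marrow.

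The stretches upstream of the 5 receptor genes are shown because these genes shared their highest cell class, as described below. Each line gives the 250 bases before the annotated transcript start, 5′ to 3′ on the gene's own strand, from RefSeq on build GRCm38.p6. Capitals mark GGAA or, for the other strand, TTCC, the core letters bound by ETS transcription factors such as Erg and Fli1.
Kdr: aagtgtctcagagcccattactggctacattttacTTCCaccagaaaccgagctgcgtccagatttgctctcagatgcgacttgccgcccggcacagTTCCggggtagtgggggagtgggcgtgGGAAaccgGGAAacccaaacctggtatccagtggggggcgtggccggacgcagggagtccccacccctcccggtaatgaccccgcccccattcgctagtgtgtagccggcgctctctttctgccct
Flt1: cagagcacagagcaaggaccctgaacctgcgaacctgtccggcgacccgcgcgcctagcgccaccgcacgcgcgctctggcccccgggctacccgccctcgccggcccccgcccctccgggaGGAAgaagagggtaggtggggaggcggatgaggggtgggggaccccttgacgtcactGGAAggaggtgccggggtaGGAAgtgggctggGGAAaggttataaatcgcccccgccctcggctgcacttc
Flt4: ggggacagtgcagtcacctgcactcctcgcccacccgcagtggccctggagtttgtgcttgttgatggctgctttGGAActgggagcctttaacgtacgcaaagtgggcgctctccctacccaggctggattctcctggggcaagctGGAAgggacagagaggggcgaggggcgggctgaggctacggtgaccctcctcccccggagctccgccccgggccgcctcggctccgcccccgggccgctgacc
Tek: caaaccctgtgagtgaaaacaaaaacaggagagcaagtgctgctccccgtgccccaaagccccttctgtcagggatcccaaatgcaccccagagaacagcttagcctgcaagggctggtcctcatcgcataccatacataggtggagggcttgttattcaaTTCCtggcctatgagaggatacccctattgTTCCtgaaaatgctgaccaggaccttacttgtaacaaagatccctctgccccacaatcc
Tie1: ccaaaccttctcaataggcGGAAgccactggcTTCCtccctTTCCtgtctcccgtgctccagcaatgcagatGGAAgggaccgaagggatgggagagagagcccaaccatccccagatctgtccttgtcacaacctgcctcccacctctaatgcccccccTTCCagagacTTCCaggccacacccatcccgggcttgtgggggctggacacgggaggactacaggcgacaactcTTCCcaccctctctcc
The Kdr stretch lies at chr5:75978456-75978705 on the minus strand and held 4 such matches, and the Flt1 stretch at chr5:147726012-147726261 on the minus strand also held 4. The Flt4 stretch at chr11:49609429-49609678 on the plus strand and the Tek stretch at chr4:94739039-94739288 on the plus strand held 2 each. The Tie1 stretch at chr4:118489850-118490099 on the minus strand held 7. Of 32851 mouse promoters of the same length, 93.4% held at least 1 match, with a median of 3. At least 4 matches were found in 33.4% of them, at least 2 in 76.8% and at least 7 in 3.82%. A match is a description of the letters, not of a bound site. Promoter entries were matched by symbol for 7 of the 9 genes, and Angpt1 and Angpt2 are named only.

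Library 1 held 77572847 UMIs (unique molecular identifiers, counts of captured RNA molecules) of named genes and gave 9340 cells, and library 2 held 116775367 and gave 11873 cells. The median cell had 3279.5 UMIs in library 1 and 4356 in library 2. The cells fell into 28 clusters, of which 25 were named by marker genes into 21 classes such as "endothelial-like", and 3 stayed unnamed and are called by their leading genes. The 9 genes and all other genes of their pathway described below were left out of the clustering. Classes were ranked if each library gave 30 or more of their cells, which held for 23. A level is given as CPM, the UMIs of a gene per 1000000 UMIs of all genes in that class and library, with its exact Poisson 95% interval in brackets, which covers counting error only. Each library is 1 pool without replicates, so no test was made, and levels are compared between cell classes within a gene and not between genes. Of the cell barcodes, 70 occurred in both libraries.

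Endothelial-like cells, the class with the highest receptor levels described next, were named by the 10 endothelial markers. That these markers were raised thus follows in part from the naming. They numbered 303 in library 1, 3.24% of its cells, and 596 in library 2, 5.02%. All 10 of their markers, which include Pecam1, Cdh5, Emcn and Cldn5, were raised, and their summed level was 5209 CPM in library 1 and 5582 CPM in library 2. In B cell-like cells the sum was 129.8 and 126 CPM, and Pecam1, which B cells also carry, gave 154 of its 201 UMIs in library 1 and 250 of its 323 in library 2. The endothelial-like cells had a median of 5148 UMIs in library 1 and 4562 in library 2.

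All 5 receptor genes had their highest level in endothelial-like cells in both libraries, each with 2-fold or more over the next class. For Flt4 this limit was not kept when every cell was thinned to 1000 UMIs, where the lower of its log2 ratios to the next class was 0.72. No ligand gene met the 2-fold limit in the main setting. Over the other settings tried, the lower log2 ratio of Angpt1 ranged from 0.43 to 1.26, so it met the limit in at least 1. All 9 genes passed the minimum of 20 UMIs in some class of each library. Of them, 7 shared their highest class between the libraries, and 5 of these were also 2-fold or more above the next class. Among all 13735 genes measured in the same way, 55.3% shared their highest class between libraries and 11.4% also reached 2-fold. The first count thus lies near what other genes show and the second well above it. The 9 genes were chosen with earlier results of these data known, so these counts are a description. Endothelial-like cells were highest for 3.47% of all measured genes, and highest at 2-fold for 1.16%. Among the 12364 genes not used to form the clusters these shares were 3.37% and 1.04%, and the shares without regard to class were 53.2% and 8.14%. The receptors are classic endothelial genes, and Flt1 stood among the 10 leading genes of the endothelial cluster although it had been left out of the clustering.

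**Figure D1:**
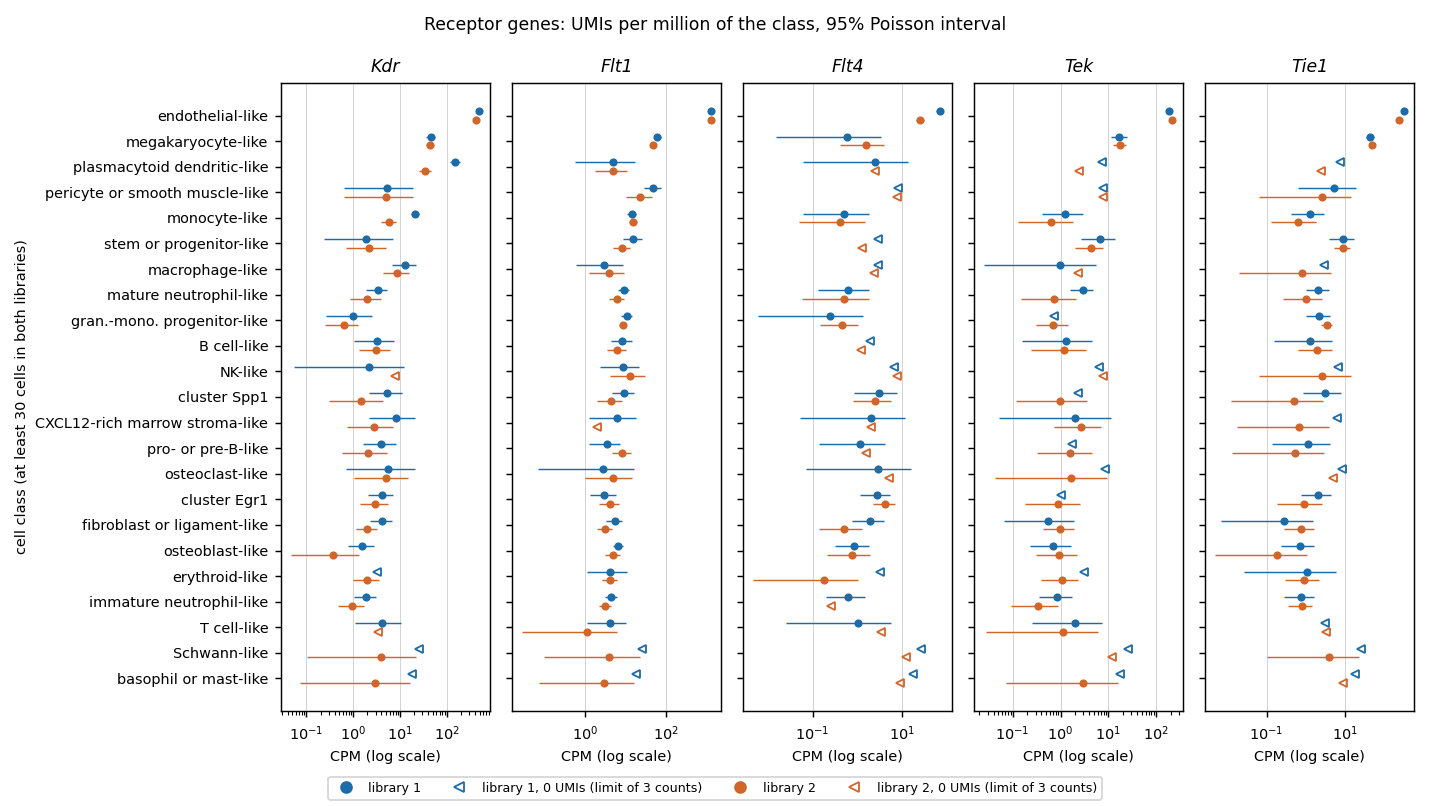
Level of each receptor gene (horizontal, CPM on a log scale, each panel on its own scale) in the 23 ranked cell classes (vertical), in blue for library 1 and orange for library 2, with exact Poisson 95% intervals. Open triangles mark classes with 0 UMIs at the level of 3 counts. Endothelial-like cells, in the top row, hold the highest value in every panel, from 24.4 CPM for Flt4 in library 2 to 1269 CPM for Flt1 in library 2.

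Flt1 stood over 20-fold above every other ranked class in endothelial-like cells of both libraries. Its level in endothelial-like cells was 1234 CPM (1188 to 1281) in library 1 and 1269 CPM (1234 to 1304) in library 2. Megakaryocyte-like cells, the marrow cells that shed platelets, came next at 60.0 CPM (48.9 to 72.9) and 47.9 CPM (39.9 to 57.0). Endothelial-like over megakaryocyte-like cells gave a ratio of 20.6 in library 1 and of 26.5 in library 2, with exact conditional 95% intervals of 16.9 to 25.3 and 22.2 to 31.9. Pericyte or smooth muscle-like cells, the cells that wrap vessels and are called pericyte-like below, held 47.2 CPM (28.0 to 74.7) and 23.1 CPM (10.6 to 43.9), and their intervals overlap those of megakaryocyte-like cells in both libraries. Of all Flt1 UMIs in cells, 86.0% in library 1 and 90.3% in library 2 lay in endothelial-like cells. Monocyte-like cells, in which VEGFR1 is known to guide migration, held 14.3 and 15.7 CPM, and B cell-like cells held 8.39 and 6.24 CPM. RNA outside cells, in barcodes with at most 100 UMIs, held Flt1 at 83.7 and 77.7 CPM. All classes named here except endothelial-like cells lay below that.

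Kdr, the gene of the main signalling receptor, was also highest in endothelial-like cells, but a dendritic cell class carried it as well. Endothelial-like cells held 498 CPM (469 to 529) in library 1 and 411 CPM (391 to 431) in library 2, with 76.2% and 84.6% of the gene's UMIs in cells. Plasmacytoid dendritic-like cells, the blood cells that secrete type I interferon, held 153 CPM (118 to 196) in library 1, from 63 UMIs in 18 of 79 cells. In library 2 they held 34.7 CPM (25.0 to 47.0), from 42 UMIs in 21 of 229 cells. Their order against megakaryocyte-like cells, at 45.9 CPM (36.3 to 57.3) and 44.1 CPM (36.4 to 52.9), differed between libraries: they stood above them in library 1, and the intervals overlapped in library 2. The ratio of endothelial-like cells to the next class was 3.25 (2.52 to 4.26) in library 1 and 9.33 (7.72 to 11.4) in library 2. Monocyte-like cells followed at 21.0 and 5.78 CPM and macrophage-like cells at 12.7 and 8.71 CPM, against 3.23 and 3.12 CPM in B cell-like cells. The levels of these last classes all lay below Kdr in RNA outside cells, at 30.3 and 25.6 CPM.

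Kdr in the plasmacytoid dendritic-like cells stood at 30.7% of its endothelial level in library 1 and at 8.45% in library 2. In these cells Flt1 stood at 0.394% of its endothelial level in library 1 and 0.391% in library 2, and Tek and Tie1 had 0 UMIs in both. Of the 10 endothelial markers, 6 were detected in each library, while Cldn5, Esam, Robo4 and Mmrn2 had 0 UMIs, and the summed markers were at 192 CPM in library 1 and 222 CPM in library 2. Cdh5, the gene of the endothelial cadherin, was at 6.18% and 9.60% of its endothelial level, Pecam1 at 8.79% and 7.23%, Eng at 4.21% and 4.60%, and Emcn at 0.240% and 0.186%. Kdr thus stood above each of the 10 markers on this scale in library 1, but below Cdh5 and near Pecam1 in library 2. RNA outside cells held Kdr at 30.3 and 25.6 CPM, which lies within the interval of these cells in library 2 and below it in library 1. After every cell was thinned to 1000 UMIs, Kdr was detected in 6.33% and 3.93% of plasmacytoid dendritic-like cells, against 0.422% and 0.343% of B cell-like cells. Unthinned, at a median of 4000 and 4970 UMIs, the share of plasmacytoid dendritic-like cells was 22.8% and 9.17%, and in B cell-like cells, at 1813 and 1839.5 UMIs, it was 0.524% and 0.584%.

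Tek and Tie1, the angiopoietin receptor genes, shared their order of classes: endothelial-like, then megakaryocyte-like, then stem or progenitor-like cells. Tek held 190.3 CPM (173 to 209) in endothelial-like cells of library 1 and 219.6 CPM (205 to 235) in those of library 2. Megakaryocyte-like cells held 17.1 CPM (11.4 to 24.5) and 17.5 CPM (12.8 to 23.3), so endothelial-like cells were higher by a ratio of 11.1 (7.65 to 16.9) and 12.6 (9.34 to 17.3). Stem or progenitor-like cells, in which Tie2 is a known marker of quiescent blood stem cells, held 6.70 CPM (2.69 to 13.8) and 4.28 CPM (2.05 to 7.88), and B cell-like cells 1.29 and 1.17 CPM. RNA outside cells held Tek at 13.7 and 15.1 CPM. The stem or progenitor-like levels lay below these values, and the megakaryocyte-like intervals include them. The interval of the stem or progenitor-like cells overlaps that of the megakaryocyte-like cells in library 1 and lies below it in library 2.

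Of the 5 receptor genes, Tie1 had the smallest ratio of endothelial-like to megakaryocyte-like cells in both libraries. Its level was 306 CPM (283 to 330.0) in endothelial-like cells of library 1 and 231 CPM (216 to 246) in those of library 2. Megakaryocyte-like cells held 43.6 CPM (34.2 to 54.7), from 74 UMIs, and 49.0 CPM (40.9 to 58.2), from 129 UMIs. The ratio of endothelial-like to megakaryocyte-like cells was 7.02 (5.52 to 9.05) in library 1 and 4.71 (3.92 to 5.71) in library 2. Stem or progenitor-like cells held 8.62 and 8.57 CPM and B cell-like cells 1.29 and 1.95 CPM, all below Tie1 in RNA outside cells, at 16.8 and 16.7 CPM. Endothelial-like cells carried 83.3% and 79.9% of the Tie1 UMIs and megakaryocyte-like cells 9.09% and 11.2%.

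Flt4, the VEGF-C receptor gene, was sparse outside endothelial-like cells. These held 67.6 CPM (57.3 to 79.4) in library 1, from 150 UMIs in 88 of 303 cells, and 24.4 CPM (19.8 to 29.8) in library 2, from 97 UMIs in 77 of 596 cells. No other class had more than 14 UMIs. The unnamed cluster led by Egr1, Fos and Fosb, in which 5 of 9 fibroblast markers were raised, held 2.68 CPM from 8 UMIs and 4.15 CPM from 14 UMIs, and the ratio of endothelial-like cells to it in library 2 was 5.89 (3.35 to 11.2). In library 1 the class with the fewest UMIs set the limit. Schwann-like cells, the glia of nerves, had 0 Flt4 UMIs there, and endothelial-like cells were at least 2.65-fold higher than the level of 3 counts in that class. B cell-like cells had 0 UMIs in both libraries. Flt4 is known from lymphatic and from sinusoidal endothelium, and no endothelial sub-cluster here was named by the lymphatic or sinusoidal markers.

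The megakaryocyte-like cells were the class next to endothelial-like cells for Flt1, Tek and Tie1 in both libraries and for Kdr in library 2. Relative to its level in endothelial-like cells, Tie1 stood at 14.2% in library 1 and 21.2% in library 2, Kdr at 9.21% and 10.7%, Tek at 8.97% and 7.96%, and Flt1 at 4.87% and 3.77%. Cdh5 stood at 0.239% and 0.208%, Emcn at 0.349% and 0.426%, Cldn5 at 0.213% and 0.433%, and Robo4 at 0.608% and 0.850%. Mmrn2 had 0 UMIs in library 1 and was at 0.491% in library 2. Esam, an adhesion gene that platelets share with endothelium, was at 66.3% and 64.0%, Pecam1 at 12.4% and 9.55%, and Eng at 7.75% and 8.39%. The summed endothelial markers of megakaryocyte-like cells were 388 CPM and 381 CPM, with 9 of 10 detected in library 1 and 10 of 10 in library 2.

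The share of cells with at least 1 UMI was highest in endothelial-like cells for each receptor gene, both before and after thinning, and the order of the classes below them differed in part from that of the levels. Before thinning, Flt1 was detected in 94.7% and 93.0% of endothelial-like cells, Kdr in 78.5% and 70.0%, Tie1 in 69.6% and 62.4%, Tek in 60.7% and 60.4%, and Flt4 in 29.0% and 12.9%. With every cell thinned to 1000 UMIs, which left out 7 and 4 endothelial-like cells, Flt1 was detected in 70.3% and 65.0%, Kdr in 37.8% and 32.3%, Tie1 in 23.0% and 19.9%, Tek in 18.6% and 20.8%, and Flt4 in 5.74% and 3.04%. In thinned megakaryocyte-like cells, where 69 and 36 cells were left out, Flt1 was detected in 7.12% and 4.98%, Kdr in 5.62% and 3.23%, and Tie1 in 3.75% and 5.22%. Unthinned, these cells had a median depth of 1480 and 1888.5 UMIs and shares of 13.4% and 15.3% for Flt1, 12.2% and 11% for Kdr, and 12.8% and 15.8% for Tie1. B cell-like cells, with a median of 1813 and 1839.5 UMIs, set the background: thinned, with 52 and 33 cells left out, Flt1 was detected in 0.703% and 0.773% and Tie1 in 0.141% and 0.0858%. Unthinned, Flt1 was detected in 1.57% and 1.34% of B cell-like cells and Kdr in 0.524% and 0.584%.

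**Figure D2:**
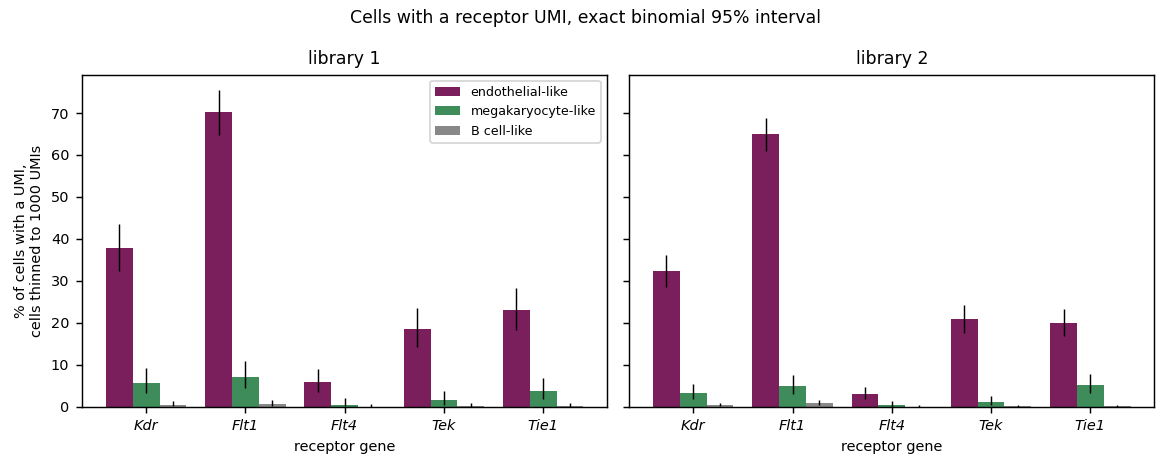
Percent of cells with at least 1 UMI of each receptor gene after thinning to 1000 UMIs, in endothelial-like, megakaryocyte-like and B cell-like cells of library 1 (left) and library 2 (right), with exact binomial 95% intervals. For Flt1 the bars stand at 70.3% and 65.0% in endothelial-like cells, 7.12% and 4.98% in megakaryocyte-like cells and 0.703% and 0.773% in B cell-like cells.

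Most endothelial-like cells carried several receptors at full depth. In library 1, 34.0% had UMIs of 4 of the 5 receptor genes and 17.2% of all 5, and in library 2 these shares were 31.9% and 7.21%. Cells with none were 1.98% and 2.52%. With thinning to 1000 UMIs, 1 receptor was the most common number, in 40.2% and 41.7% of cells, and 10.8% and 15.9% had none, so the number seen per cell depends on depth. Whether the detection of 1 receptor gene goes with that of another was not tested, and the shares are given as a description. Among thinned cells, Flt1 was detected in 69.6% of the cells with Kdr and 70.7% of those without in library 1, and in 70.2% and 62.6% in library 2. Kdr was detected in 50.9% of the cells with Tek and 34.9% of those without in library 1, and in 33.3% and 32.0% in library 2.

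**Figure D3:**
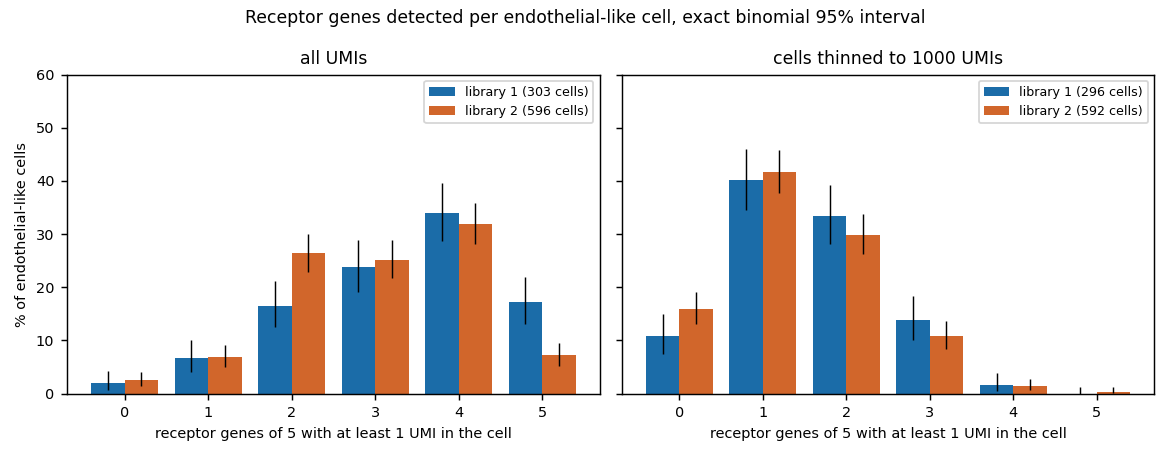
Percent of endothelial-like cells (vertical) by the number of the 5 receptor genes with at least 1 UMI (horizontal), with all UMIs (left) and after thinning to 1000 UMIs (right), with exact binomial 95% intervals. With all UMIs, 4 receptors is the most common number, at 34.0% and 31.9%, and after thinning 1 receptor is, at 40.2% and 41.7%.

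Vegfa, the main growth factor gene, had no shared highest class and was spread over stromal, bone-forming and some blood cells. Under 6 of the 14 other settings tried a class was shared, but not the same one: NK-like cells in 2 of them, and CXCL12-rich marrow stroma-like cells, fibroblast or periodontal ligament-like cells and 2 clusters with Egr1 and Prss23 among their leading genes in 1 each. The class called NK-like, after a kind of cytotoxic lymphocyte, was 1 cluster of 152 and 97 cells led by Gzma, Ccl5 and AW112010, with 7 of 7 NK markers raised, and whether it holds 1 cell type was not tested. NK-like cells were highest in library 1 with 829.6 CPM (749 to 917) and next to highest in library 2 with 452 CPM (387 to 524). The cluster led by Egr1, Fos and Fosb held 648 CPM (619 to 677) and 539 CPM (514 to 564) and was highest in library 2. CXCL12-rich marrow stroma-like cells, which support blood stem cells, held 570.5 CPM (506 to 641) and 416 CPM (384 to 451). The unnamed cluster led by Spp1, Sfrp4 and Serpine2 held 547 CPM (508 to 588) and 381 CPM (355 to 409), and 85 of its 721 UMIs in library 1 came from 1 cell. The intervals of NK-like and CXCL12-rich marrow stroma-like cells overlap in library 2, as do those of CXCL12-rich marrow stroma-like cells and the Spp1 cluster in each library.

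By the amount of Vegfa RNA, fibroblasts and osteoblasts carried much of it. Fibroblast or periodontal ligament-like cells held 507 CPM (484 to 530.1) and 288 CPM (277 to 300.4) and 18.0% and 20.1% of all Vegfa UMIs in cells. Osteoblast-like cells, the bone-forming cells, held 338 CPM (325 to 352) and 204 CPM (192 to 217) and 23.1% and 9.36% of the UMIs. The Egr1 cluster added 18.5% and 15.7%. Pericyte-like cells held 241 and 223 CPM and stem or progenitor-like cells 165 and 244 CPM. Mature neutrophil-like cells held 139 and 151 CPM, and their 2 clusters differed. The cluster led by Il1b, Asprv1 and Acod1 held 166 and 210.2 CPM. That led by Retnlg, Mmp8 and Cxcr2 held 76.0 and 106 CPM. RNA outside cells held Vegfa at 166 CPM in library 1 and 131 CPM in library 2. The Retnlg cluster lay below these values in both libraries. In library 1, mature neutrophil-like cells as a class also lay below, and stem or progenitor-like cells and the Il1b cluster lay near the value. In library 2, these classes and the Il1b cluster stood above it. Endothelial-like cells, which carry the receptors, were among the low classes for Vegfa with 65.4 CPM (55.2 to 76.9) and 45.6 CPM (39.2 to 52.7), ranks 17 and 21 of 23. Vegfa was detected in 6.76% and 3.89% of thinned endothelial-like cells, against 7.31% and 6.09% of thinned B cell-like cells and 2.30% and 0.893% of thinned erythroid-like cells. The unthinned shares were 27.4% and 19.8% in endothelial-like cells, 11.8% and 10.4% in B cell-like cells and 6.15% and 3.96% in erythroid-like cells. Erythroid-like cells had the lowest level, with 13.7 and 8.14 CPM.

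**Figure D4:**
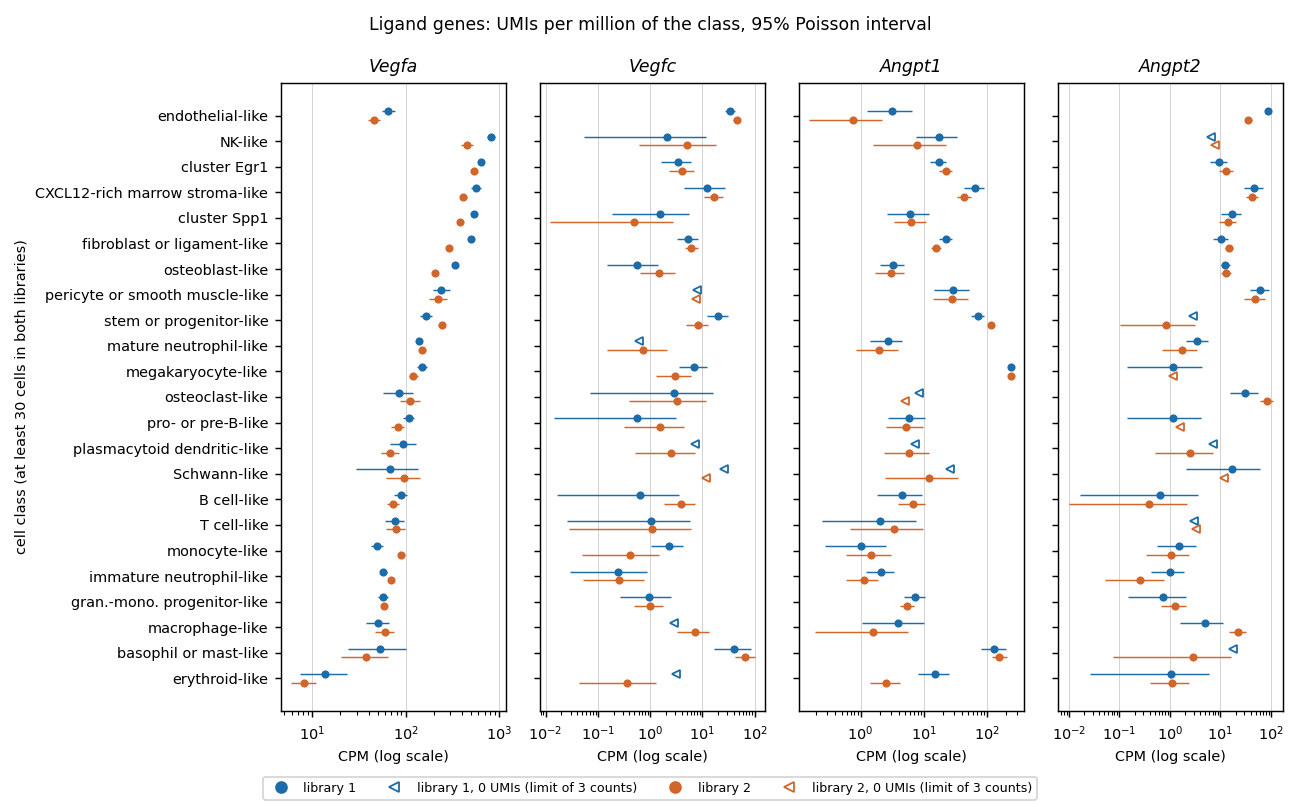
Level of each ligand gene (horizontal, CPM on a log scale, each panel on its own scale) in the 23 ranked cell classes (vertical), in blue for library 1 and orange for library 2, with exact Poisson 95% intervals and open triangles for 0 UMIs at the level of 3 counts. Vegfa spreads over many classes, from 829.6 CPM in NK-like cells of library 1 to 8.14 CPM in erythroid-like cells of library 2, whereas Angpt1 stands out in megakaryocyte-like cells at 238 and 234 CPM.

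Vegfc, the ligand gene of VEGFR3, had more of its UMIs in endothelial-like cells than in any other class. These held 75 UMIs in 53 cells of library 1 and 181 UMIs in 124 cells of library 2, 41.4% and 46.3% of all Vegfc UMIs in cells. Their level was 33.8 CPM (26.6 to 42.4) and 45.6 CPM (39.2 to 52.7). Basophil or mast-like cells, rare granule-bearing blood cells, ranked above them with 41.2 CPM (16.6 to 84.9) and 66.7 CPM (42.3 to 100.1), but from only 7 and 23 UMIs, of which 16 of the 23 lay in 3 cells. The ratio of basophil or mast-like to endothelial-like cells was 1.22 (0.474 to 2.64) in library 1 and 1.46 (0.904 to 2.26) in library 2, so the order of these classes lies within counting error. Endothelial-like cells were highest in both libraries under 4 of the 14 other settings tried. Basophil or mast-like cells were a ranked class in only 12 of the 14, and the settings without that class were among those 4. In these settings the order of the classes could not be compared. CXCL12-rich marrow stroma-like cells held 12.2 and 16.9 CPM and stem or progenitor-like cells 20.1 and 8.14 CPM. Pericyte-like cells had 0 UMIs in both libraries.

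Angpt1, whose product activates Tie2, was highest in megakaryocyte-like cells in both libraries. They held 238 CPM (216 to 263), from 405 UMIs in 117 of 336 cells, and 234 CPM (216 to 254), from 617 UMIs in 165 of 438 cells. That was 47.7% and 42.1% of all Angpt1 UMIs in cells. Basophil or mast-like cells came next with 129.6 CPM (81.2 to 196) and 157 CPM (118 to 204), a ratio of megakaryocyte-like to basophil or mast-like cells of 1.84 (1.20 to 2.97) and 1.5 (1.13 to 2.02). The difference is larger than counting error in each library but below 2-fold. Stem or progenitor-like cells held 71.8 CPM (56.5 to 90.0) and 115 CPM (102 to 129.9), and CXCL12-rich marrow stroma-like cells, a known source of angiopoietin 1 in marrow, held 63.2 CPM (42.9 to 89.6) and 43.3 CPM (33.4 to 55.3). Pericyte-like cells held 28.9 and 28.2 CPM and fibroblast or periodontal ligament-like cells 22.0 and 15.6 CPM. The unnamed cluster led by Igfbp6, Wif1 and Omd, which had too few cells in library 1 to be ranked, held 149.7 and 32.1 CPM.

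Endothelial-like cells, which were highest for the receptor gene Tek, held almost no Angpt1. They had 7 and 3 Angpt1 UMIs, or 3.16 CPM (1.27 to 6.5) and 0.755 CPM (0.156 to 2.21), against 4.52 and 6.63 CPM in B cell-like cells. In thinned megakaryocyte-like cells Angpt1 was detected in 18.0% and 16.7%, against 0.422% and 0.515% of thinned B cell-like cells, with unthinned shares of 34.8% and 37.7% against 0.786% and 0.918%. Osteoclast-like cells had 0 Angpt1 UMIs in both libraries.

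Angpt2, the antagonist gene, had a different highest class in each library, with leads over the next class that lay within counting error. In library 1 it was highest in endothelial-like cells with 89.3 CPM (77.3 to 103), from 198 UMIs in 56 of 303 cells, of which 51 lay in 1 cell and 79 in 3 cells. In library 2 it was highest in osteoclast-like cells, the bone-resorbing cells, with 83.0 CPM (61.6 to 109), from 50 UMIs in 12 of 36 cells, of which 29 lay in 3 cells. Endothelial-like cells of library 2 held 36.0 CPM (30.4 to 42.4), rank 4 of 23, and osteoclast-like cells of library 1 held 31.0 CPM (15.5 to 55.5), from 11 UMIs. These leading levels rest on few cells. Pericyte-like cells came next in each library. The ratio of the highest class to them was 1.48 (0.958 to 2.39) in library 1 and 1.70 (0.986 to 3.06) in library 2. More even between libraries were pericyte-like cells at 60.4 CPM (38.3 to 90.6) and 48.8 CPM (29.4 to 76.2) and CXCL12-rich marrow stroma-like cells at 46.9 CPM (29.7 to 70.3) and 42.7 CPM (32.8 to 54.6). The intervals of those 2 classes overlap each other, and in library 2 they overlap that of endothelial-like cells. Osteoblast-like cells held 12.6 and 13 CPM and fibroblast or periodontal ligament-like cells 10.2 and 15 CPM.

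The receptor genes were found in both large sub-clusters of the endothelial-like cells. Of 4 sub-clusters, 2 had at least 30 cells in both libraries. That led by Rgs5, Fos and Fosb had 208 and 235 cells, and that led by Ccn2, Cyp1a1 and Cyp1b1 had 67 and 321 cells. Flt1 was lower in the Rgs5 sub-cluster, with 1221 and 1243 CPM, against 1485 and 1421 CPM in the Ccn2 sub-cluster, a ratio of 0.822 (0.731 to 0.927) in library 1 and 0.875 (0.826 to 0.926) in library 2. Kdr had a ratio of 0.987 (0.811 to 1.21) in library 1 and 1.17 (1.06 to 1.30) in library 2, and Tie1 1.05 (0.806 to 1.39) and 1.19 (1.03 to 1.37). Flt4 had a ratio of 3.12 (1.30 to 9.78) in library 1, from 121 and 5 UMIs, and 1.19 (0.762 to 1.89) in library 2. Angpt2 had a ratio of 1.52 (0.880 to 2.84) in library 1 and 0.653 (0.462 to 0.922) in library 2, on opposite sides of 1. Only the Flt1 ratio was on the same side of 1 in both libraries with intervals that excluded 1.

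The 2 sub-clusters also differed in depth and in other genes. The Rgs5 sub-cluster had a median of 6400 and 6465 UMIs, against 2941 and 3747 in the Ccn2 sub-cluster. Rgs5 is on the pericyte marker list, and the 9 pericyte markers summed to 521 CPM (9 of 9 detected) and 302 CPM (8 of 9, Higd1b at 0) in the Rgs5 sub-cluster. In the Ccn2 sub-cluster they summed to 182 CPM (2 of 9 detected) and 167 CPM (7 of 9, Kcnj8 and Higd1b at 0), and in pericyte-like cells to 30632 and 28534 CPM. The part of depth and of pericyte RNA in the ratios was not tested. A smaller arterial-like sub-cluster, with 6 of 8 arterial markers raised, had 17 and 27 cells. In it Flt1 held 1152 CPM (987 to 1336) and 749 CPM (650.0 to 859), Kdr 338 CPM (251 to 444) and 268 CPM (210.2 to 337), and Vegfc 79.4 CPM (41.0 to 139) and 121 CPM (83.4 to 170.2). Angpt2 had only 2 and 1 UMIs there.

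**Figure D5:**
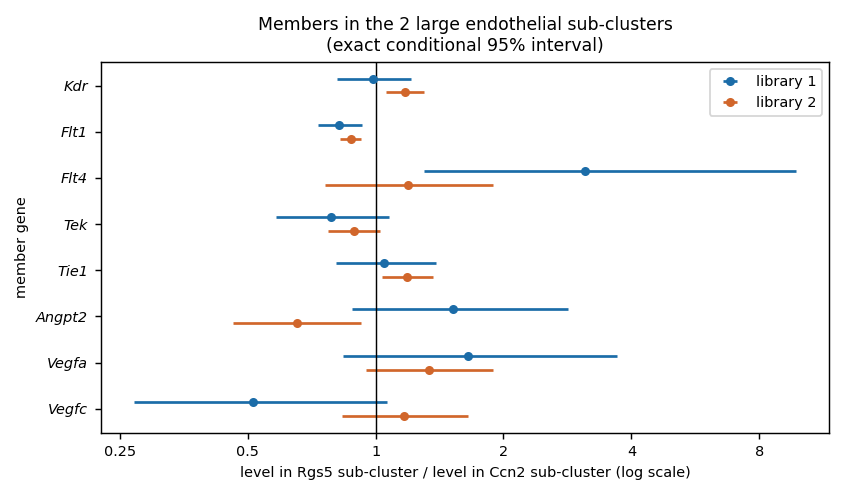
Ratio of the level in the Rgs5 sub-cluster to the level in the Ccn2 sub-cluster of endothelial-like cells (horizontal, log scale) for 8 of the genes (vertical), in blue for library 1 and orange for library 2, with exact conditional 95% intervals. Flt1 lies left of 1 in both libraries, at 0.822 and 0.875, and Angpt2 lies on opposite sides, at 1.52 and 0.653.

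At a finer resolution of 0.6, 89 endothelial-like cells of library 1 and 5 of library 2 formed a sub-cluster led by Gpihbp1, Ccl2 and Kcne3. Gpihbp1 anchors lipoprotein lipase on capillary endothelium, and 1 of 6 capillary markers was raised. In its cells of library 1 Kdr held 731 CPM (667 to 801), Tie1 383 CPM (336 to 434), Angpt2 191 CPM (158 to 228) and Flt4 92.2 CPM (70.2 to 119). These values stood above those of all endothelial-like cells of library 1 for Kdr, Tie1 and Angpt2 with intervals that do not overlap, and for Flt4 with intervals that do. The 89 cells are part of the endothelial-like cells they are set against, so the values compared are not independent. The intervals cover counting error only, and part of the Angpt2 UMIs of library 1 lay in few cells, as given above. Angpt2 was also among the 10 leading genes of this sub-cluster, and the 5 cells of library 2 are too few to describe.

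Of 6 further ligand and co-receptor genes of the VEGF family, 5 were measured, 4 had a shared highest class and 1 reached 2-fold, against 55.3% and 11.4% of all measured genes. None was highest in endothelial-like cells in both libraries, which with 3.47% among all genes and only 5 genes is no departure from the background. Vegfb, a ligand gene of VEGFR1, was highest in osteoclast-like cells at 53.6 and 68.1 CPM, from 19 and 41 UMIs. That was 2.63 (1.16 to 6.34) and 2.17 (1.36 to 3.46) times the next class, so both intervals reach below 2-fold. Nrp2, a co-receptor gene, was highest in osteoclast-like cells too at 875 and 752 CPM, with endothelial-like cells next at 372 and 409.7 CPM. Pgf, another ligand gene of VEGFR1, was highest in pericyte-like cells at 186 and 123 CPM, with endothelial-like cells next at 171 and 72.5 CPM. Nrp1, a co-receptor gene of VEGFR2, had no shared class, with pericyte-like cells highest at 181 CPM in library 1 and endothelial-like cells at 160.4 CPM in library 2. Gpc1, a heparan sulfate proteoglycan gene, was highest in osteoblast-like cells at 389.6 and 470.4 CPM. Vegfd did not reach the minimum of UMIs.

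Across all 51 further genes of the pathway, 48 were measured, 32 shared their highest class between the libraries and 12 of them also reached 2-fold over the next class. Of the 32, 11 were highest in endothelial-like cells, 5 of them at 2-fold. As shares of the measured genes these are 66.7%, 25.0%, 22.9% and 10.4%, against 55.3%, 11.4%, 3.47% and 1.16% of all measured genes. The 5 endothelial genes at 2-fold were Ptprb, Nos3, Rasip1, Aplnr and Rasgrp3. Ptprb, a phosphatase that acts on Tie2, held 547 and 634 CPM in endothelial-like cells, with ratios to the next class of 69.4 and 80.1, each against a class with few UMIs. Nos3, the endothelial nitric oxide synthase that VEGFR2 signalling activates, held 129 and 79.1 CPM. Rasip1, a regulator of vessel lumen formation, held 461 and 341 CPM, and Rasgrp3, a Ras activator induced by VEGF, held 202 and 209.5 CPM. Aplnr, the apelin receptor gene, rested on 43 and 58 UMIs, with 0 and 1 UMIs in its next class. Its 2-fold call depends on the floor of 0.5 UMIs in that class, and at the level of 3 counts its ratio was 0.760 and 1.90.

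The other 7 genes at 2-fold were highest elsewhere. Angptl1 and Esm1 were highest in CXCL12-rich marrow stroma-like cells, at 297 and 499 CPM and at 65.2 and 30.5 CPM. Esm1 is best known as an endothelial tip cell gene, and endothelial-like cells came next with 20.3 and 10.3 CPM. Dok2, an adaptor that binds Tie2, and Tal1, a transcription factor of blood and endothelial precursors, were highest in megakaryocyte-like cells at 301 and 313 CPM and at 325 and 284 CPM. Sh2d3c and Thbs1, the gene of the angiogenesis inhibitor thrombospondin 1, were highest in mature neutrophil-like cells at 491 and 398 CPM and at 4644 and 5181 CPM. Vegfb was the seventh. As for Vegfb, the intervals of the ratio to the next class reached below 2-fold for Esm1, with lower ends of 1.98 and 1.89. So did those of Dok2 in library 2, at 1.83, and of Tal1 in library 1, at 1.77. By list, 9 of 12 measured receptor signalling genes, 8 of 12 tip cell genes, 4 of 7 angiopoietin genes, 3 of 6 oxygen-sensing genes and 4 of 6 inhibitor genes shared their highest class, against 55.3% of all measured genes.

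Over the 23 classes, the 5 genes with levels most like those of Flt1, Tek and Tie1 included other receptor genes. Those of Kdr and Tek included 1 of the endothelial markers each, Cdh5 and Robo4, and those of Flt4 held neither kind. Likeness was the Pearson r of log2(CPM + 10) over the classes, taken as the lower of the 2 libraries over all 13735 measured genes. It is a description, since the points share a library and differ in depth. Flt1 was most like Tie1, with r of 0.959 in library 1 and 0.943 in library 2, and Tie1 and Tek were like each other with 0.973 and 0.957. Tek was most like Ces2e, with 0.986 and 0.981, Flt4 was most like Sox18, a transcription factor gene of endothelium, with 0.985 and 0.955, and Kdr was most like Cdh5, with 0.877 and 0.883. Among the ligand genes, Angpt1 was most like Ptger3, a prostaglandin receptor gene, with 0.876 and 0.846, and Itga2b, a platelet integrin gene, was among its 5 nearest. Angpt2 was most like Apbb2 with 0.936 and 0.883, Vegfa most like Fhl2 with 0.793 and 0.777, and Vegfc most like Kcne3 with 0.765 and 0.813. No ligand gene had another of the 9 genes among its 5 nearest.

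RNA outside cells held all 9 genes. In barcodes with at most 100 UMIs, Flt1 stood at 83.7 and 77.7 CPM, Kdr at 30.3 and 25.6 CPM and Tie1 at 16.8 and 16.7 CPM. Tek stood at 13.7 and 15.1 CPM, Vegfa at 166 and 131 CPM and Angpt1 at 20.8 and 22.1 CPM. The endothelial-like levels of the receptor genes and the megakaryocyte-like level of Angpt1 lay well above these values. B cell-like cells lay below them for all of these genes. Megakaryocyte-like cells, at 60.0 and 47.9 CPM of Flt1, also lay below them for that gene, and above them for Kdr, Tie1 and Angpt1. Their Vegfa levels, 150 CPM (132 to 170) and 121 CPM (108 to 135), were lower than those outside cells, with intervals that include the latter. For Tek, too, the megakaryocyte-like intervals include the values outside cells.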

How the data were processed

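The deposited files hold raw counts of UMIs per gene and barcode for 2 libraries, as unfiltered sparse matrices. Per the labels' protocols, bone was digested for 60 min at 37 °C with a microwell kit's solution. FastQC 0.11.9 and the builds mm10 and GRCh38 are listed in the submitters' processing notes with no role given. The aligner or counting program is not given in the sources used here. Of 99819 features, 42693 had no gene symbol and were left out, with 0.602% and 0.431% of the UMIs.

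A barcode was called a cell at the inflection of the barcode rank curve, 823 UMIs in library 1 and 929 in library 2, with at least 200 genes and at most 20% mitochondrial UMIs. These steps left 9909, 9890 and 9832 barcodes in library 1 and 12879, 12705 and 12498 in library 2. Scrublet's own threshold marked 0 and 2 cells and so had not worked, and the 5% of cells with the highest scores, 492 and 625, were removed. Doublets may remain. The UMIs in cells were 64.5% and 67.4% of all. The shared barcodes were 0.749% and 0.590% of the cells.

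Both libraries were clustered together in scanpy 1.11.5 (Python 3.11.15, leidenalg 0.10.2), with 10000 counts per cell, log values, 2000 scaled variable genes, 30 principal components, 15 neighbours and Leiden resolution 1.0. Clusters were named from 28 marker lists with 191 genes. A name needed 3 or more of its markers, making up more than 50% of its list, to stand 3-fold or more above the remaining cells. It also needed a marker among the 10 leading genes. Endothelial-like cells were clustered again at resolution 0.3.

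UMIs were summed per class and library as CPM. Ratios floor a class at 0.5 UMIs to decide 2-fold calls. Intervals are exact Poisson, Clopper-Pearson or conditional ones at 95%. Samples were assigned to no group, and no test was made. The 9 genes are all described, and other pathway genes are named with values if 2-fold or more above the next class in each library or if ligands or co-receptors. The sub-clusters, the smaller classes and the like genes were reported by the same sums. The ranking was tested on simulated counts for 56893 genes, with 49, 45, 52 and 54 genes planted at 1.5-, 2.5-, 4- and 8-fold. All genes planted at 2.5-fold or more and 89.8% of those planted at 1.5-fold were found in the right class. In the same order, 4.08%, 88.9%, 94.2% and 100% of the planted genes were called 2-fold. The members and lists were chosen with earlier results of these data known, and scaling and the naming rule were settled after the clusters had been seen.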

Additional observations from a re-analysis of the deposited data

How the results depend on the processing

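Under 11 alternatives in cell calling, mitochondrial limit, doublets, resolution, clustering, ambient RNA, normalization and ranking, and 3 chosen after seeing the data (unscaled genes with 2 Leiden programs, and another naming rule), all 5 receptor genes stayed highest in endothelial-like cells and Angpt1 in megakaryocyte-like cells. The genes with a shared highest class numbered 6 to 8 and those at 2-fold 4 to 7, so some settings also had ligand genes at 2-fold. Vegfc had endothelial-like cells highest in both libraries under 4 alternatives, with a minimum of 2000 UMIs, with the 10% highest doublet scores removed and with unscaled genes, and no shared class when cells were thinned. Basophil or mast-like cells were a ranked class in only 12 of the 14, and the settings without that class were among those 4. Vegfa gained a shared class under 6 of the 14. The lower log2 ratio to the next class ranged over 4.14 to 4.46 for Flt1, 1.34 to 3.22 for Kdr, 2.10 to 2.26 for Tie1, 2.70 to 3.75 for Tek and 0.72 to 3.63 for Flt4, whose value fell below 2-fold when cells were thinned.

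The sub-cluster ratios were less stable, and the cause was not tested. Except under thinning, the endothelial-like cells were clustered again under each setting. Each main sub-cluster was then replaced by the new one with the largest overlap of cells. The cells compared thus differ from those of the main ratios. As log2 of the sub-cluster matched to Rgs5 over that matched to Ccn2, a minimum of 2000 UMIs gave -1.68 (library 1) and -1.17 (library 2) for Angpt2. It gave -0.49 and 0.019 for Kdr, and -0.38 for Flt4 in library 1, reversed from 1.64. Without doublet removal, library 1 gave -1.79 for Angpt2, -0.19 for Flt4, reversed, and -0.52 for Kdr, and library 2 gave 0.069 for Kdr. Resolution 0.6 gave -0.60 for Flt1 in library 1. The matched sub-clusters there were led by Fos, Egr1 and Socs3, with 86 cells of library 1, and by Ccn2, Depp1 and Cyp1b1, with 53. Thinning to 1000 UMIs gave 3.32 (library 1) and 1.03 (library 2) for Flt4, 0.40 for Kdr and 0.11 for Tek in library 1, and -0.36 for Flt1 and 1.25 for Vegfa in library 2. No paired analysis was possible because the libraries are assigned to no group and no test was made. Depth limits Flt4, Vegfc and Angpt2, whose levels rest on few UMIs or few cells.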
